A study of Homo sapiens with 6 samples.

Results

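The genes described here are 40 mitosis and G2/M genes, given as a list of symbols: kinases and their activators, kinesins, kinetochore proteins, and proteins of the spindle checkpoint, anaphase and chromosome structure. All 40 were found among the 20037 protein-coding genes of the RefSeq gene table on build GRCh38. A peak was assigned to a gene when it was at most 1000 bp wide, called narrow here, and its summit lay in the gene's span. This gave 82, 212 and 88 narrow peaks in the lists of replicates 1, 2 and 3, of 30109, 160931 and 15813 narrow peaks in all.

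The study asked how SmD2, the protein made from SNRPD2, interacts with pseudouridine in RNA. RNA immunoprecipitation sequencing (RIP-seq) had been done in HEK293T, a human embryonic kidney cell line, on 3 samples with the genotype SNRPD2OE (SNRPD2 overexpression) and 3 with the genotype Ctrl. The labels name no other allele, agent or time, no tag or promoter for the overexpressed gene, and nothing that says the replicates were separate cultures. One peak list per SNRPD2 overexpression sample was used, and the Ctrl samples were left out as not analysed here. No test between groups was therefore made, every value describes these lists, and spreads may be technical. SNRPD2 itself carried 2 narrow peaks in each list, with 78, 80 and 78 reads at the higher summit. In replicates 1 and 3, 78 was also the highest read number of the whole list. These values may therefore lie at an upper limit and do not measure the level of SNRPD2 RNA.

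Mitosis begins when CDK1 bound to a B-type cyclin is switched on by CDC25 phosphatases. Kinases of the Polo and Aurora families then organise the spindle, kinesins move along its microtubules, and kinetochores join chromosomes to it. The spindle checkpoint holds the anaphase-promoting complex back until every kinetochore is attached; the complex then marks securin and cyclin B for destruction, which frees separase to cut cohesin. SmD2 is a subunit of the Sm ring that binds small nuclear RNAs of the spliceosome, and PUS7, also named in the study's design, is a pseudouridine synthase.

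For 5 genes, narrow peaks of at least 2 lists shared bases within a RefSeq start window (250 bases before to 50 bases after an annotated start), so their sequence could be read from the RefSeq table of build GRCh38.p14. For each, 28 bases that hold all or part of the shared stretch are shown, 5′ to 3′ on the gene's strand, with bases covered by all the lists that had a peak there in capitals. PLK4, where 3 lists met, is given first. In CCNB2 and TOP2A the bases shown end where the window ends.
PLK4, chr4:127881091-127881118, plus strand: GTGAAGGAAGCTAATCCGGAGAACCCAG
SMC2, chr9:104094382-104094409, plus strand: CTTTGTAGCGGCCCCGGCTAGAGAGTTG
CCNB2, chr15:59105168-59105195, plus strand: tcggagagcagtcctAACGGCGCCTCGT
CDC25C, chr5:138338311-138338338, minus strand: gccccagcgcCACCTGccctccaccacc
TOP2A, chr17:40417847-40417874, minus strand: agcggcttggtcgGGGGTGGTCTCGTGG

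The PLK4 stretch lies between 141 and 114 bases before one of the gene's annotated starts and 3′ of another. The SMC2 stretch lies between 245 and 218 bases before an annotated start, but inside the gene's span. The summits there in replicates 1 and 3 lay 6124 and 6134 bp from the 5′ end of the span. The CCNB2 and TOP2A stretches lie between 23 and 50 bases after an annotated start. For CDC25C the stretch lies between 18 and 45 bases after one. The letters TNTAA and TNTAG, in which PUS7 is known to modify the middle T (U in RNA), and ATTTTTG, a form of the Sm site, were searched on both strands; none of these motifs contains another. TNTAG occurred once on each strand of the SMC2 stretch, and the other 4 stretches held no match to any of them. Among 35116 start windows, the same 28 positions as in SMC2 held TNTAG in 5.87% on the sense strand. A match describes letters only.

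A narrow peak was present in 30 of the 40 genes in replicate 1, 39 in replicate 2 and 32 in replicate 3, a mean of 33.7 ± 4.73 (SD, n = 3). Over all protein-coding genes the share with a narrow peak was 45.3%, 76.7% and 30.3%, against 75.0%, 97.5% and 80.0% of the mitosis genes. The share was above that of all protein-coding genes in each list. The gap was smallest in replicate 2, where most genes had a peak. Counting only peaks with at least 10 reads at the summit left 14, 26 and 19 genes, a mean of 19.7, against 14.2%, 15.9% and 13.0% of all protein-coding genes. Peaks wider than 1000 bp, left out of these counts, had a summit in 14 of the 40 genes in replicate 3, against 51.7% of protein-coding genes. Transcript levels were not measured in these lists, and their part in the difference was not tested.

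**Figure D1:**
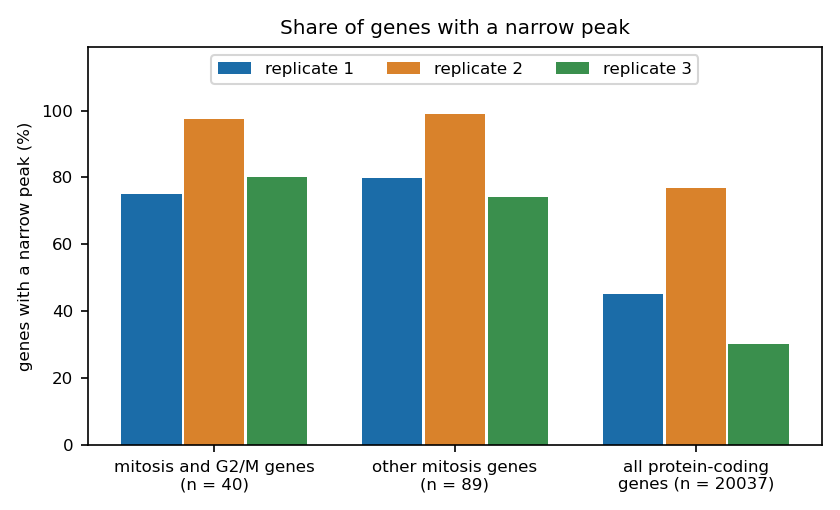
Share of genes with at least 1 narrow peak, in percent, in each replicate's list, for the 40 mitosis and G2/M genes, 89 other mitosis genes and all 20037 protein-coding genes. Each bar is 1 list; the mitosis genes stand at 75.0%, 97.5% and 80.0%, against 45.3%, 76.7% and 30.3% of all protein-coding genes.

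All 40 genes had a narrow peak in at least 1 list, whereas 20.9% of protein-coding genes had none in any. Every SMC4 summit also lay in another gene. Of the 40, 25 (62.5%) had a narrow peak in all 3 lists, against 23.9% of protein-coding genes. In 2 lists it was 11 of the 40 (27.5%), against a similar 25.4% of protein-coding genes. In 1 list it was 4 of the 40, against 29.9% of protein-coding genes. Those 4 were CDK1, seen only in replicate 3, and BUB3, KIF2C and NDC80, seen only in replicate 2. With at least 10 reads required, 9 genes had a peak in all 3 lists, against 7.39% of protein-coding genes: BIRC5, BUB1, CDC20, CDC25A, NCAPD2, PLK1, PRC1, TOP2A and TPX2.

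Narrow peaks per 10 kb of gene span numbered 0.593, 1.53 and 0.636 in replicates 1, 2 and 3, against 0.219, 0.934 and 0.119 over all protein-coding genes. The median span of the mitosis genes was 29.0 kb and that of all protein-coding genes 24.1 kb. These densities divide all peaks by the total span, 1.38 Mb for the 40 mitosis genes and 1296 Mb for the 20037 protein-coding genes. Long genes therefore weigh most, and the longest spans were 130.78 kb and 2474 kb. The part of gene length in the difference was not tested. The reads behind each peak were few. The median at a summit was 9, 5 and 9 reads in the mitosis genes and 5, 1 and 7 over all protein-coding genes, and 54 of the 212 replicate 2 peaks rested on a single read. Peaks with at least 10 reads made up 45.1%, 38.2% and 47.7% of the mitosis genes' peaks, against 22.5%, 6.86% and 32.7%. No peak of a mitosis gene had more than 40, 67 and 40 reads in replicates 1, 2 and 3; the 67 reads lay in a small RNA gene inside NCAPD2. Few were strong by the authors' q-value: a −log10 q of at least 1.3 was reached in 1, 12 and 2 genes, against 5.21%, 18.3% and 2.95% of protein-coding genes. Of the mitosis genes' peaks, 1.22%, 6.60% and 2.27% reached it, against 4.57%, 4.32% and 4.51% over all protein-coding genes. By peak, the mitosis genes thus stood lower in replicates 1 and 3 and higher in replicate 2.

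**Figure D2:**
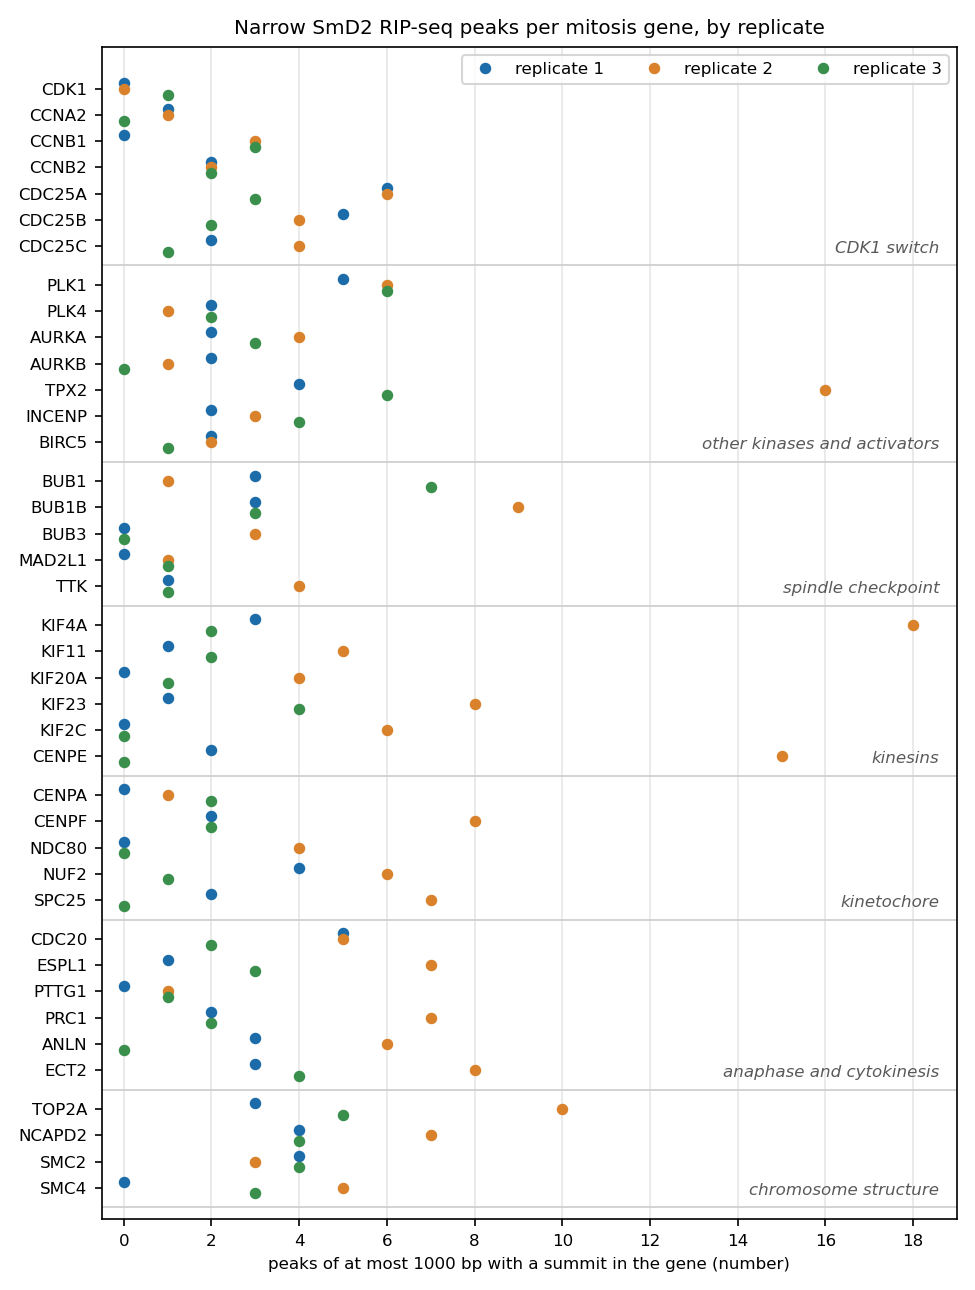
Number of narrow peaks with a summit in each of the 40 genes (horizontal axis), with 1 point per replicate and genes grouped by role. KIF4A, TPX2 and CENPE stand out in replicate 2, with 18, 16 and 15 peaks, while no gene has more than 6 in replicate 1 or 7 in replicate 3.

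The CDK1 switch comprised CDK1, its cyclins CCNA2, CCNB1 and CCNB2, and the activating phosphatases CDC25A, CDC25B and CDC25C. Of these 7 genes, 5, 6 and 6 had a narrow peak in replicates 1, 2 and 3, at 1.01 ± 0.252 peaks per 10 kb (SD, n = 3). The 3 CDC25 phosphatases and CCNB2 had one in every list. CDC25A had 6, 6 and 3 peaks and CDC25B 5, 4 and 2. CDK1 itself had a single peak, of 11 reads, 1807 bp from its 5′ end in replicate 3.

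CCNB2, a B-type cyclin, had its strongest peaks near the 5′ end in replicates 1 and 3. In replicate 1 the summit lay 40 bp from the 5′ end, with 9 reads and a fold of 3.20. Fold here is the authors' value at the summit, the scaled pileup plus 1 over the caller's background plus 1. In replicate 3 it lay at 104 bp, with 12 reads, a fold of 3.85 and a −log10 p of 6.58, the highest of the mitosis genes in that list. These peaks overlapped. The strongest CCNB2 peak of replicate 2 lay elsewhere, 2223 bp from the 5′ end, with 9 reads and a fold of 4.35.

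CCNA2, the A-type cyclin, had 1 peak in each of replicates 1 and 2 and none in replicate 3. The 2 summits lay 3216 and 3206 bp from the 5′ end, with 19 and 22 reads. CCNB1 had 3 peaks in each of replicates 2 and 3 and none in replicate 1; the first lay 47 and 77 bp from the 5′ end, with 29 and 18 reads. At the 5′ end of CDC25C, the 4-read and 7-read summits of replicates 2 and 3 also lay in FAM53C, a neighbouring gene, and cannot be assigned to either.

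The other kinases and activators had the most peaks per length of the 7 roles, 1.53 ± 0.456 per 10 kb (SD, n = 3). They comprised the Polo kinases PLK1 and PLK4, the Aurora kinases AURKA and AURKB, TPX2, which activates Aurora A, and INCENP and BIRC5 (survivin), partners of Aurora B. A narrow peak was present in 7, 7 and 6 of these 7 genes, and AURKB, which had no peak in replicate 3, was the gene missing there. Of the 6 genes with a segment common to all 3 lists, 4 had this role: PLK1, PLK4, TPX2 and BIRC5.

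PLK1, which drives centrosome maturation and mitotic entry, had 5, 6 and 6 narrow peaks in an 11.5 kb span. Near its 5′ end, narrow peaks of all 3 lists covered chr16:23678960-23678989, with 23, 25 and 22 reads and folds of 4.05, 4.05 and 3.29. The replicate 2 peak there had a −log10 p of 9.78, the highest of the mitosis genes in its list. These reads are those at the summits, which lay 121, 297 and 61 bp from the 5′ end, each outside the shared segment. A second common segment, chr16:23689285-23689360, lay 1045 bp from the 3′ end. Its summits stood at 23689338, 23689335 and 23689336, with 13, 19 and 11 reads and folds of 2.93, 3.12 and 2.98. Other PLK1 summits recurred in pairs, at 3215 and 3232 bp from the 5′ end in replicates 1 and 3, and at 8654 and 8672 bp in replicates 2 and 3.

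PLK4, the kinase that licenses centriole duplication, was covered by all 3 lists at chr4:127881079-127881131. The summits lay 128, 213 and 192 bp from the 5′ end, with 7, 7 and 5 reads and folds of 2.60, 4.20 and 2.14. Every PLK4 peak had 7 reads or fewer. Its other peaks, at 16009 bp in replicate 1 and 12907 bp in replicate 3, were not shared.

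BIRC5 had its common segment at chr17:78214335-78214398, 113 bp from the low-coordinate end of the gene. The 3 peaks had 32, 39 and 38 reads and folds of 2.24, 2.10 and 2.13. Reads and folds were alike in the 3 lists. The strongest BIRC5 peak of replicate 2 lay in another place, 497 bp from that end, with 30 reads and a −log10 p of 8.07.

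TPX2 had the most narrow peaks of all 40 genes, 4, 16 and 6, of which 6 in replicate 2 rested on a single read. All 3 lists covered chr20:31792793-31792830, with 11, 14 and 8 reads, and chr20:31794495-31794522, with 13, 14 and 11 reads. The strongest TPX2 peak lay elsewhere in every list and overlapped none of the others: 20 reads with a fold of 3.25 in replicate 1, 20 reads with 2.55 in replicate 2 and 14 reads with 4.22 in replicate 3.

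AURKA had 2, 4 and 3 narrow peaks, with 5 to 16 reads. AURKB had 2 in replicate 1, with 12 and 18 reads, and 1 in replicate 2, with 10. INCENP had 2, 3 and 4; replicates 2 and 3 each had a 7-read summit at its 5′ end, at 108 and 97 bp.

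**Figure D3:**
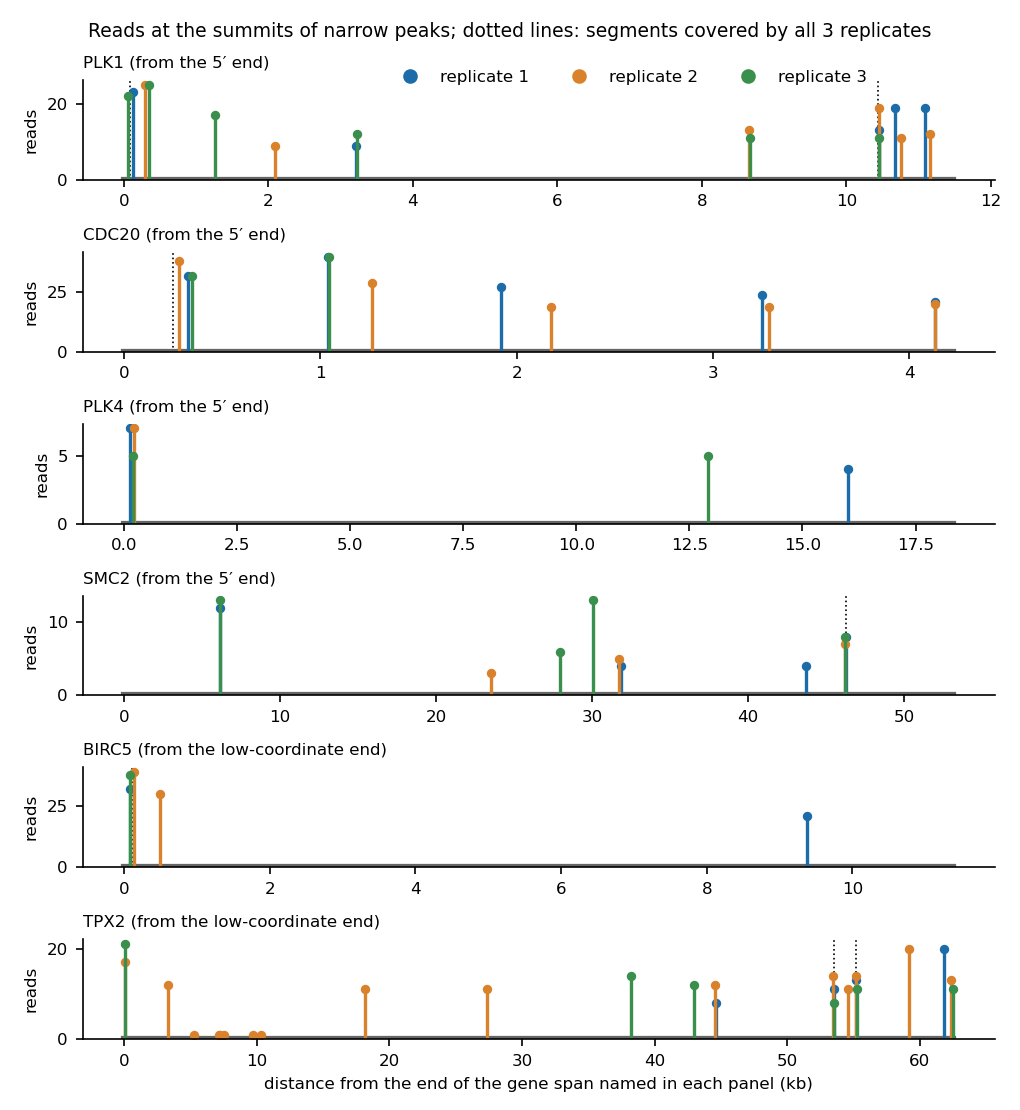
Reads at the summit of each narrow peak (vertical axis) against its distance in kb from the 5′ end, or from the low-coordinate end for BIRC5 and TPX2, in the 6 genes where narrow peaks of all 3 lists covered a common segment. Dotted lines mark the 8 segments; the PLK1, CDC20, PLK4 and BIRC5 panels show one close to the origin, and PLK1 a second near its other end.

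The spindle checkpoint genes BUB1, BUB1B (BubR1), BUB3, MAD2L1 (MAD2) and TTK (MPS1) had a narrow peak in 3, 5 and 4 of 5 genes, at 0.744 ± 0.332 per 10 kb (SD, n = 3). BUB1, BUB1B and TTK had one in all lists. None of the 5 had a segment common to all 3.

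BUB1, a kinase of the kinetochore, had the strongest peak of any mitosis gene. In replicate 1, chr2:110658097-110658163 had 20 reads, a fold of 7.81, a −log10 p of 11.1 and a −log10 q of 5.11. The peak overlapped the low-coordinate end of SNORD132, a small nucleolar RNA gene at chr2:110658150-110658249, although its summit at 110658132 lay outside it. Without strand, BUB1 and SNORD132 reads cannot be told apart here. Replicate 3 had a summit at 110658131, with 11 reads and a fold of 3.34, and replicate 2 had none. Replicates 1 and 2 shared another BUB1 site, with summits 16266 and 16272 bp from the 5′ end and 16 and 13 reads. Replicate 3 had 7 BUB1 peaks, 5 of them between 5293 and 11777 bp from the 5′ end, where the other lists had none.

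BUB1B, which inhibits the anaphase-promoting complex, had 3, 9 and 3 narrow peaks. Its strongest peaks of replicates 1 and 2 overlapped, with summits 22712 and 22769 bp from the 5′ end, 7 and 5 reads, and folds of 2.60 and 4.29. The strongest of replicate 3 lay at 45308 bp, with 11 reads and a fold of 3.72. All 3 of these summits also lay in LOC107984763, a long noncoding RNA gene. BUB3, the partner of BUB1 and BUB1B, had 3 peaks in replicate 2 alone, one of them with 39 reads. MAD2L1 had a single peak in each of replicates 2 and 3, with 18 and 21 reads at different places.

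The kinesins KIF4A, KIF11, KIF20A, KIF23, KIF2C and CENPE, motor proteins of the spindle and midzone, differed most between lists. They held 7, 56 and 9 narrow peaks, or 0.674 ± 0.779 per 10 kb (SD, n = 3), with the SD above the mean. The SD was also above the mean over all protein-coding genes, at 0.424 ± 0.444 per 10 kb (SD, n = 3). Every kinesin gene had a peak in replicate 2, and 4 of 6 in each of the others. KIF4A had 3, 18 and 2 peaks in the longest span of the 40 genes, 130.78 kb, and none had more than 6 reads. Its strongest had 4, 3 and 4 reads, with folds of 3.15, 3.61 and 1.95, at 3 separate places. CENPE, the kinetochore-bound kinesin, had 2, 15 and 0 peaks, and in replicate 2 none exceeded 4 reads.

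KIF23 (MKLP1), a central spindle kinesin, had 1, 8 and 4 narrow peaks. The strongest had 6 reads with a fold of 4.07 in replicate 1, 8 reads with 4.73 in replicate 2, and 9 reads with 3.16 in replicate 3. They lay 14803, 30497 and 1670 bp from the 5′ end, so no pair of these overlapped. KIF11 (Eg5), which pushes spindle poles apart, had 1, 5 and 2; replicates 2 and 3 agreed at 60577 and 60580 bp, with 12 and 13 reads. KIF2C, which depolymerises microtubules, had 6 peaks in replicate 2, with 6 to 18 reads, and none in the others. KIF20A had 4 in replicate 2 and 1 in replicate 3.

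The kinetochore genes CENPA, CENPF, NDC80, NUF2 and SPC25 held 8, 26 and 5 narrow peaks, or 0.732 ± 0.639 per 10 kb (SD, n = 3). Only CENPF and NUF2 had a peak in all 3 lists. At the 5′ end of NUF2, a subunit of the NDC80 complex, peaks of all 3 lists lay in a chain, with summits at 118, 103 and 93 bp and 7, 12 and 10 reads, but no 20 bp were covered by all 3. Replicates 1 and 2 also met at 14828 and 14839 bp and at 18413 and 18408 bp. NDC80 had peaks in replicate 2 alone. The strongest, with a fold of 4.83 and a −log10 p of 9.30, rested on 4 reads over a background of 0.0361 reads, which shows how few reads a small p-value can stand for.

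CENPF, a large kinetochore and nuclear matrix protein, had 2, 8 and 2 peaks, of which 6 in replicate 2 rested on a single read and 3 lay in the pseudogene ABHD17AP3. Its strongest peaks had 7, 4 and 5 reads, with folds of 3.74, 4.11 and 2.24, at separate places. CENPA, the centromeric histone H3 variant, had 1 peak in replicate 2, with 10 reads, and 2 in replicate 3, the stronger with 8 reads. These lay 95 and 60 bp from the 5′ end. SPC25 had 2 and 7 narrow peaks, with 1 to 3 reads, and none in replicate 3.

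Anaphase and cytokinesis were represented by CDC20, ESPL1 (separase), PTTG1 (securin), PRC1, ANLN (anillin) and ECT2. A narrow peak was present in 5, 6 and 5 of these 6 genes, at 0.964 ± 0.587 per 10 kb (SD, n = 3). CDC20, the activator of the anaphase-promoting complex, was the densest of all 40 genes. Its 4.22 kb span, the shortest of the 40, held 5, 5 and 2 peaks, or 11.8, 11.8 and 4.74 per 10 kb, all with at least 19 reads.

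All 3 lists covered CDC20 at chr1:43359193-43359266. The peaks there had 32, 38 and 32 reads and folds of 1.68, 1.72 and 3.04. Read numbers were alike while folds were not; the background and the scaled height of 1 read also differed between the lists. The strongest CDC20 peaks of replicates 1 and 2 had their summits at the same base, 90 bp from the 3′ end, with 21 and 20 reads; replicate 3 had none there. Replicates 1 and 3 agreed at 1039 and 1043 bp from the 5′ end, with 40 reads each.

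ESPL1, the protease that cuts cohesin, had 1, 7 and 3 peaks, the strongest with 7, 4 and 8 reads and folds of 2.60, 3.42 and 2.98, and no pair of these overlapped. The replicate 3 peak had a −log10 p of 6.20, second in its list among the mitosis genes. ECT2, the exchange factor that sets the cleavage site, had 3, 8 and 4 peaks. Its strongest had 4, 3 and 9 reads and folds of 3.21, 3.29 and 3.05, also at 3 places. PRC1, the midzone bundling protein, had 2, 7 and 2 peaks, all with at least 10 reads; summits in replicates 1 and 2 lay at 50 and 86 bp and at 13537 and 13614 bp from the 5′ end. Of its 11 summits, 9 also lay in PRC1-AS1. PTTG1 had 1 peak in each of replicates 2 and 3, both with 11 reads, at 5941 and 6011 bp. ANLN had 3 and 6, and none in replicate 3.

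The chromosome structure genes TOP2A (topoisomerase II alpha), NCAPD2, SMC2 and SMC4 (condensin subunits) had a narrow peak in 3, 4 and 4 of 4 genes, at 1.11 ± 0.456 per 10 kb (SD, n = 3). SMC4 was the gene without a peak in replicate 1. All its summits, 5 in replicate 2 and 3 in replicate 3, also lay in TRIM59-IFT80, a long noncoding RNA gene, and cannot be assigned to either. TOP2A had 3, 10 and 5 narrow peaks, 17 of the 18 with at least 10 reads. Its strongest had 15 reads with a fold of 3.14 in replicate 1, 32 reads with 3.02 in replicate 2 and 15 reads with 4.43 in replicate 3, at separate places. The last lay 81 bp from the 5′ end and overlapped an 18-read peak of replicate 2, where the TOP2A sequence above was read. Replicates 1 and 2 met near the 3′ end, with 15 and 19 reads.

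NCAPD2 had 4, 7 and 4 narrow peaks. Its deepest, in replicate 2, had 67 and 66 reads, and both summits lay in SCARNA10, a small Cajal body RNA gene inside NCAPD2, so these reads cannot be assigned to NCAPD2. The 66-read peak, with a fold of 1.68, was the strongest NCAPD2 peak of that list. In replicates 1 and 3 the strongest had 16 reads with a fold of 4.71 and 13 reads with a fold of 3.48, outside SCARNA10.

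SMC2 had 4, 3 and 4 narrow peaks. All 3 lists covered chr9:104134509-104134547, with 8, 7 and 8 reads and folds of 2.90, 2.85 and 2.81. Its strongest peaks in replicates 1 and 3 overlapped at the stretch printed above, with summits at 104094387 and 104094397, 12 and 13 reads, and folds of 4.10 and 3.99. The strongest of replicate 2, with 5 reads and a fold of 5.08, overlapped a peak of replicate 1.

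Merging narrow peaks that overlapped gave 313 sites in the 40 genes: 254 (81.2%) in 1 list, 50 (16.0%) in 2 and 9 (2.88%) in 3. In genes of known strand, the shares were 81.9%, 15.9% and 2.17% for the mitosis genes and 89.4%, 9.18% and 1.47% for all protein-coding genes. The 9 sites fell in BIRC5, CDC20, NUF2, PLK1, PLK4, SMC2 and TPX2. A segment of at least 20 bp covered by all 3 lists was found in 6 genes (15.0%), against 5.97% of protein-coding genes. The count fell to 2 genes, BIRC5 and PLK1, when each list was limited to its 15813 narrow peaks of highest −log10 p. It fell to 0 with a −log10 q of at least 1.3. Shares of protein-coding genes at these limits are not given here. When only the other lists had to cover the segment, it was found in 18 genes without replicate 1 and 11 without replicate 2. Without replicate 3 it was found in 17 genes (42.5%), against 24.6% of protein-coding genes. Shares of protein-coding genes for the other pairs of lists are not given here. Among the 25 genes with peaks in every list, the strongest peaks of 17 did not overlap in any pair of lists. Those of 8 overlapped in 1 pair, and those of none in all. Overlap of strongest peaks over all protein-coding genes is not given here, so these counts have no background beside them.

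Of the 82 narrow peaks of replicate 1, 32 (39.0%, 95% Wilson interval 29.2% to 49.8%) overlapped a narrow peak of replicate 2. With lists limited to equal length this share was 14.7%. Of the 212 of replicate 2, 32 (15.1%, 10.9% to 20.5%) overlapped one of replicate 1. Over all protein-coding genes these shares were 35.0% and 8.31%. Replicate 3 overlapped replicate 1 in 18.2% of its peaks and replicate 2 in 33.0%, against 27.2% and 35.2% over all protein-coding genes. Of replicate 1 peaks with at least 10 reads, 51.4% overlapped replicate 2, and of those with fewer, 28.9%. The intervals, 35.9% to 66.6% and 17.7% to 43.4%, overlap, and all such intervals cover counting error only. Over all protein-coding genes, 47.8% of replicate 1 peaks with at least 10 reads overlapped replicate 2. For every other pair and direction of lists, the mitosis genes stood below all protein-coding genes at this depth. Of replicate 2 peaks with at least 10 reads, 25.9% (17.6% to 36.4%) overlapped replicate 1 in the mitosis genes and 34.8% over all protein-coding genes. For replicate 2 in replicate 3 the shares were 24.7% and 33.2%, and for replicate 1 in replicate 3, 27.0% and 35.0%. Of replicate 3 peaks, 23.8% and 37.0% overlapped replicate 1, and 42.9% and 47.4% overlapped replicate 2. Each of these intervals of the mitosis genes included the share over all protein-coding genes.

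The position of summits was taken for the 35 genes whose strand is given by the RefSeq start windows, which leaves out TTK, AURKA, BIRC5, TPX2 and BUB3. The median summit of replicate 3 lay at 29.1% of the span from the 5′ end, against 54.3% in replicate 1 and 51.4% in replicate 2. The width limit left out 38 of the 126 replicate 3 peaks in the 40 genes and none of the other lists, and with peaks of any width the replicate 3 median was 39.6%. The first of 5 equal parts of the span held 15 of 73 summits (20.5%) in replicate 1, 44 of 183 (24.0%) in replicate 2 and 32 of 77 (41.6%) in replicate 3. Over all protein-coding genes it held 19.5%, 20.1% and 24.5%. Summits within 1000 bp of the 5′ end made up 9.59%, 9.29% and 23.4% in the mitosis genes, against 10.9%, 5.84% and 15.3%.

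**Figure D4:**
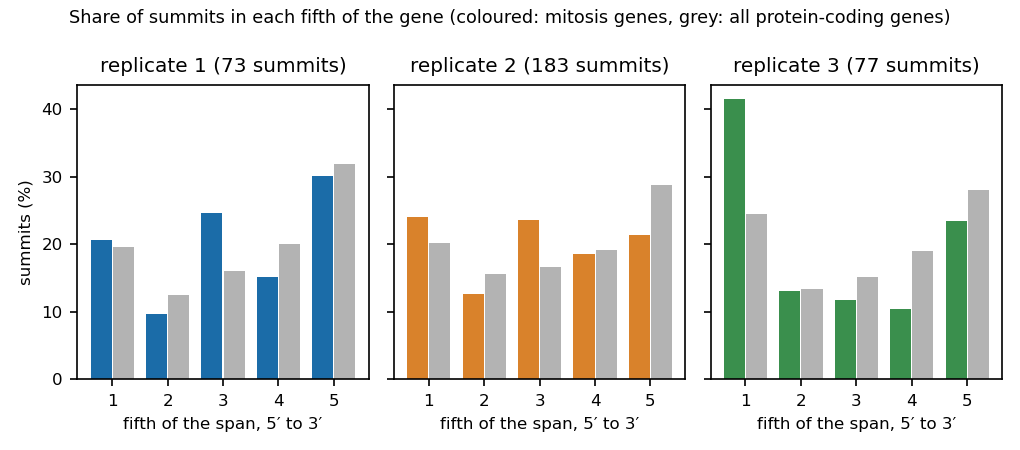
Share of narrow-peak summits (vertical axis, percent) in each of 5 equal parts of the gene span from 5′ to 3′, in 35 mitosis and G2/M genes (coloured bars) and in all protein-coding genes of known strand (grey bars), with 1 panel per replicate. In replicate 3 the first part holds 41.6% of the mitosis genes' summits, against 24.5% over all protein-coding genes.

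The share of sites near the 5′ end was higher among those seen in more lists. In the 35 genes, 13 of 226 sites (5.75%) seen in 1 list had their strongest summit within 1000 bp of the 5′ end, 8 of 44 (18.2%) seen in 2 lists, and 4 of 6 seen in 3, which were those of CDC20, NUF2, PLK1 and PLK4. The Wilson intervals were 3.39% to 9.59%, 9.51% to 32.0% and 30.0% to 90.3%. Over all protein-coding genes the shares also rose with the number of lists, from 5.96% to 12.6% and 20.6%. Their interval for sites in 3 lists was 18.8% to 22.6%. That of the mitosis genes rests on 6 sites, more than 1 of them in PLK1, and the difference was not tested. A window of 1000 bp is also a larger part of a short gene, such as CDC20 with its span of 4.22 kb.

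**Figure D5:**
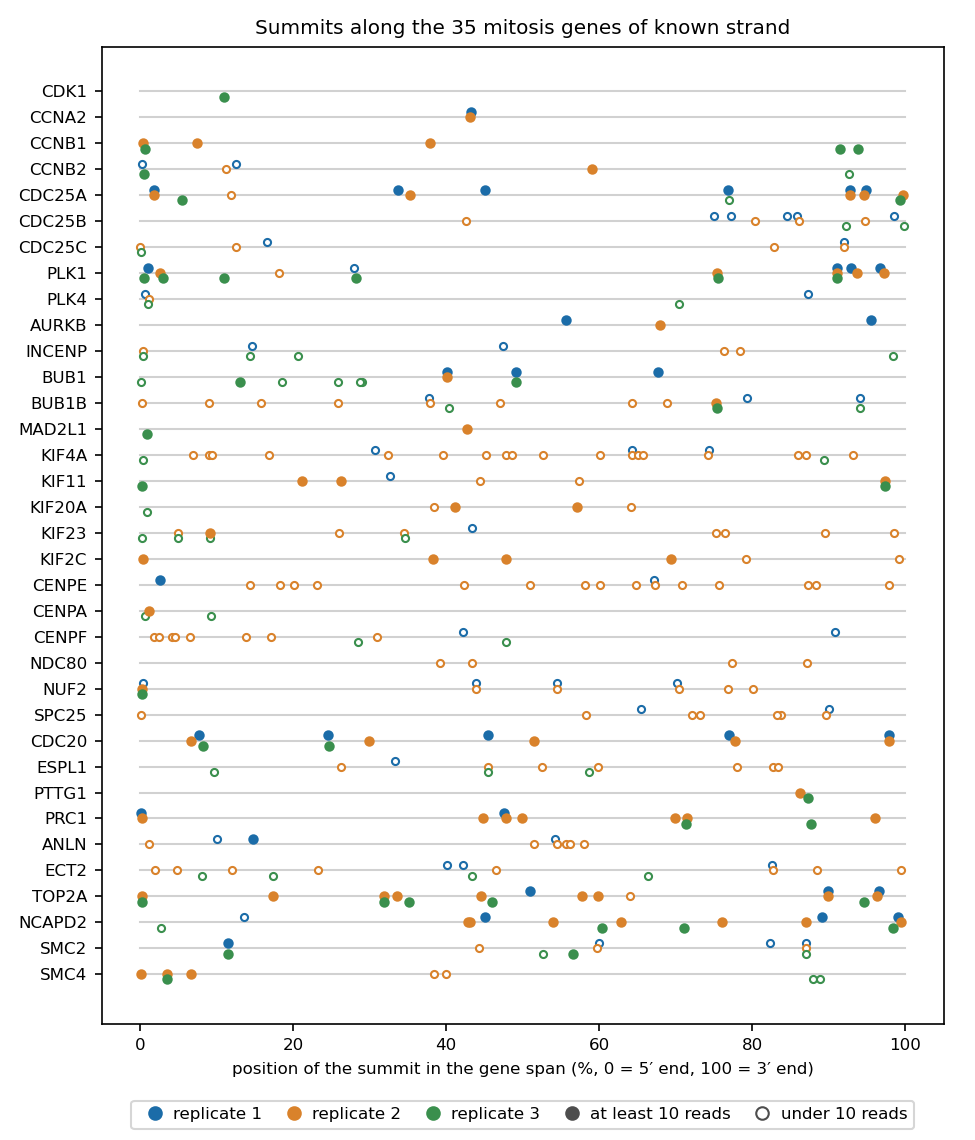
Position of each narrow-peak summit along the gene span (horizontal axis, percent, with 0 the 5′ end) in the 35 genes of known strand, coloured by replicate. Filled points have at least 10 reads and open points fewer; PLK1, PLK4, NUF2 and CDC20 show points of all 3 replicates together near the 5′ end.

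The 89 other mitosis genes, which hold none of the 40, gave like shares. A narrow peak was present in 71, 88 and 66 of them, and in all 3 lists in 53 (59.6%). Peaks per 10 kb numbered 0.528, 1.42 and 0.451. By list, 11 of 17 genes of the anaphase-promoting complex, 13 of 16 of cohesin and condensin, 13 of 18 other kinesins and spindle proteins, 8 of 14 other mitotic kinases and regulators and 8 of 24 of the kinetochore and centromere had a peak in all 3 lists. A segment covered by all 3 lists was found in 14 genes (15.7%): ANAPC1, ANAPC2, ANAPC5, CKAP5, FZR1, KNL1, MYBL2, NCAPG2, NEK6, NEK9, PDS5A, SMC1A, STAG1 and WAPL.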

How the data were processed

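Peak lists of 3 SNRPD2 overexpression samples, grouped by genotype per the labels, were used; the 3 Ctrl samples were not analysed here. The submitters' processing notes name build GRCh38 and the tools MACS2 2.2.9.1, STAR 2.7.10b and cutadapt 4.2. No strand, caller option or background library is stated in the sources used here. The extract protocol in the labels describes ribosomal RNA depletion and no immunoprecipitation.

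The deposited score is the whole part of 10 times the −log10 p, the deposited fold is a ratio described above, and the deposited −log10 p-values are unadjusted, with a smallest of 2.00 in each list. The deposited −log10 q-values are adjusted by the caller. The other deposited columns give starts, ends and summits. Peak numbers in the authors' names run without gaps but begin at 829, 5159 and 1884, so counts and absences refer to peaks in the lists; 24 mitochondrial peaks of replicate 3 were left out. Folds and p-values describe peaks within a list.

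Whole reads at each summit were worked out from the deposited fold and p, with 1 read at a height of 0.599, 1 and 0.254 in replicates 1, 2 and 3, and solved every pair of values (29, 47 and 32 pairs had several solutions, of which the closest was kept). Library depth is unknown, as is whether duplicate reads were counted. No summit in the lists of replicates 1 and 3 had more than 78 reads. High read numbers may therefore have an upper limit, which was not tested. The recovery, the counting of summits and the overlaps were tested on simulated data. Python 3.11.15, pandas 2.3.3 and scipy 1.17.1 were used.

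Genes were whole RefSeq spans. Exon classes were planned and not made, since exons were not used here. Members, roles and lists were chosen with earlier results of these data known. Values were given in full, by a fixed rule, for genes with a segment in all 3 lists, the 3 with the highest −log10 p per list, the 3 with the most peaks and 1 per role; the strongest peak is that of highest −log10 p. The genes not in these groups are described by counts, or by sites chosen after their values were seen. Alternatives were the width limit, minimum reads and q, lists of equal length, summits in no other gene, the rule for overlap, and leaving out each replicate.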

Additional observations from a re-analysis of the deposited data

Results flagged for a closer look

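Replicate 3 held 38 peaks wider than 1000 bp with a summit in 14 of the 40 genes, which the comparisons above leave out; the other lists held none in these genes. They were 1239 to 53445 bp wide, with 1 to 8 reads at the summit, and 15 of them rested on a single read. ANLN, CENPE, NDC80 and SPC25 had such a peak in replicate 3 and no narrow one. Over all protein-coding genes, 51.7% had a peak of this width in replicate 3. The widest narrow peak in these genes was 382 bp in that list.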

How the results depend on the processing

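Of 74 alternative values, 51 stayed within the replicate spread, the counting interval or 1.5 times the main count. With at least 10 reads, a mean of 19.7 genes had a peak, 9 in all 3 lists, with 53.3 peaks per list, and 51.4% of replicate 1 peaks overlapped replicate 2 and 23.5% of replicate 2 peaks overlapped replicate 1. With a −log10 q of at least 1.3 the mean was 5 genes and 5.67 peaks, with 0 genes in all 3 lists, 0 with a common segment and overlaps of 0%. With the 15813 strongest narrow peaks of each list, 15 genes had a peak in all 3 lists and 2 had a common segment (BIRC5 and PLK1). Peaks then averaged 54.3, and 14.7% of replicate 1 peaks overlapped replicate 2. Shares over all protein-coding genes at equal list length are not given here. A reciprocal overlap of 50% gave 26.8% and 10.4%, and summits within 50 bp gave 20.7% and 8.02%. Leaving out each replicate gave 31 to 35.5 genes with a peak, 25 to 31 in all lists kept, 11 to 18 with a common segment, 85 to 150 peaks, and an overlap of 18.8% to 27.1% averaged over ordered pairs of the lists kept. The median position stayed within the replicate spread under all its alternatives, at 40.2% to 52.8% with a replicate left out. The overlap of replicates 1 and 2 has no value without either. The minimum of 2 reads was chosen after seeing the data and changed no count of genes. No paired analysis was possible because the Ctrl samples were not analysed here and no model was fitted.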
